A study of Mus musculus with 5 samples.

Results

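Acetylation of histone H3 at lysine 9 (H3K9ac) was described at 10 genes whose products mutant huntingtin is known to disturb. They encode the transcription factors Sp1, Sp3, Sp4, REST, CREB1 and p53 (gene Trp53) and the corepressors RCOR1, SIN3A, SIN3B and NCOR1. The genes were chosen by name, but with earlier results of these data known. Each deposited H3K9ac peak was assigned to every gene with an annotated transcript start at most 10 kb from the peak's centre. By this rule 43 of 34286 peaks in DOP-treated cells and 49 of 33355 peaks in untreated cells belonged to the 10 genes, out of 22380 protein-coding genes annotated.

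The cells were STHdhQ111/Q111 striatal progenitors (strain C57BL/6 per the labels), a conditionally immortalized mouse line that carries the expanded huntingtin allele. Both groups were in serum-free medium for 24 h, either with 4 mM 4-deoxypyridoxine hydrochloride (DOP), an inhibitor of sphingosine-1-phosphate lyase, or without DOP (untreated, with vehicle). Each group had 2 H3K9ac ChIP-seq samples but a single deposited peak list, and an IgG sample of untreated cells was not analysed here. Values therefore carry no replicate error, no test of DOP against untreated cells was possible, and every difference below is one between 2 lists. The chromatin came from whole cultures of 1 line, in which fewer cells with the mark and less mark per cell cannot be told apart.

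H3K9ac marks the promoters of active genes and is written by histone acetyltransferases and removed by histone deacetylases. Sp1, Sp3 and Sp4 bind GC boxes in promoters, and CREB1 binds cAMP response elements and recruits the acetyltransferase CBP. REST silences neuronal genes in progenitors and non-neuronal cells by bringing in SIN3 at one end of the protein and the CoREST complex, built on RCOR1, at the other, both of which carry histone deacetylases. In neurons, normal huntingtin holds REST in the cytoplasm, whereas mutant huntingtin releases it and also binds Sp1, CBP, p53, SIN3A and NCOR1.

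The DNA under peaks that carried the differences between the lists, and under strong or weak peaks of the other factors, is shown first. All stretches are from mm9, on the strand of the gene, and hold no annotated exon. Capitals mark the letters of 4 searched motifs found on either strand: the GC box GGGCGG, the short cAMP response element TGACG, and the left (TTCAGCACC) and right (GGACAG) parts of the REST site. Overlapping GC boxes run together in 1 block of capitals. The first 2 stretches are the intronic Rest peaks that only the untreated list held.
Rest, untreated only, chr5:77695535-77695734, plus strand: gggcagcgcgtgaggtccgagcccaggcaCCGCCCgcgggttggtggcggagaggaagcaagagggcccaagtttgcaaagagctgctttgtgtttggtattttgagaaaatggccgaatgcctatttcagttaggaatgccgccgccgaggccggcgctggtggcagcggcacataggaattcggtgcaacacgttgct
Rest, untreated only, chr5:77695847-77696046, plus strand: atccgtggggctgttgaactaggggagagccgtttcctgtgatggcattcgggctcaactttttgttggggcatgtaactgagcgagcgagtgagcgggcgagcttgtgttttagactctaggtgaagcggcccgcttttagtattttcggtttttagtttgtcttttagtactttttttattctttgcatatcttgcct
The next 3 are the intronic Sin3a peaks that only the DOP-treated list held.
Sin3a, DOP-treated only, chr9:56920387-56920586, plus strand: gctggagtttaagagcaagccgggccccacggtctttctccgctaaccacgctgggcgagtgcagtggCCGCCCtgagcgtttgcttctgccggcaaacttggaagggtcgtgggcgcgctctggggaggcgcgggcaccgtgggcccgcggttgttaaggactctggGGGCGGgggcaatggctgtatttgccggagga
Sin3a, DOP-treated only, chr9:56921018-56921217, plus strand: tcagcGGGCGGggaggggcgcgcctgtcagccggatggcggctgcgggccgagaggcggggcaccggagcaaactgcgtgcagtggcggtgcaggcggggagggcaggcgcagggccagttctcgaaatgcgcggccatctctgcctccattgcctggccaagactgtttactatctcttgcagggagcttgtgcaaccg
Sin3a, DOP-treated only, chr9:56921881-56922080, plus strand: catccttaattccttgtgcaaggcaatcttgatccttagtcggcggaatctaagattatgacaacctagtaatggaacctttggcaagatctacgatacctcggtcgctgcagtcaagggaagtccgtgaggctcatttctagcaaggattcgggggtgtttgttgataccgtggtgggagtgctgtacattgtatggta
The last 5 were shared by both lists and show the strongest peak of the set (Sp3), the strongest untreated Sp1 peak, the Creb1 peak with the most GC boxes, the weakly marked Sp4 promoter and the strongest Sin3b peak of the DOP-treated list.
Sp3, shared, chr2:72818145-72818306, minus strand: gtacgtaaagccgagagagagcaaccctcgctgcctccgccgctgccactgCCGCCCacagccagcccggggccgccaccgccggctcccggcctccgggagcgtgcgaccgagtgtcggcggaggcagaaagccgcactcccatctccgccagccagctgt
Sp1, shared, chr15:102235641-102235840, plus strand: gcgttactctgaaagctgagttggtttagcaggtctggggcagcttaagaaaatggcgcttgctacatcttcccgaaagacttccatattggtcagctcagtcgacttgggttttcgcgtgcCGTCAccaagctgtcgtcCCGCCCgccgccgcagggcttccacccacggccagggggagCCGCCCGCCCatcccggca
Creb1, shared, chr1:64579972-64580171, plus strand: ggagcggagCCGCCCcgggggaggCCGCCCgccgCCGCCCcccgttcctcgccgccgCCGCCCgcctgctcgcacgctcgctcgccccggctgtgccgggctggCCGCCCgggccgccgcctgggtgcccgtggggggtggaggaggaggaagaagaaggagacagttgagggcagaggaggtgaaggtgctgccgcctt
Sp4, shared, chr12:119540183-119540382, minus strand: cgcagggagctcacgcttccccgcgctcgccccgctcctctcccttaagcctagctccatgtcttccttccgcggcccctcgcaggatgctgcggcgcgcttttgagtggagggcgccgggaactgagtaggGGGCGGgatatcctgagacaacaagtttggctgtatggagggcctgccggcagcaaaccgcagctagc
Sin3b, shared, chr8:75247358-75247557, plus strand: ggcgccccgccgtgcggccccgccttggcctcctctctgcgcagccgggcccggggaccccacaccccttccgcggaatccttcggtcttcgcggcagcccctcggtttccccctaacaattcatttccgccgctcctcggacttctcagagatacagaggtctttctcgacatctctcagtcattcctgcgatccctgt

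Among these stretches the Creb1 peak held 5 GC boxes, the Sp1 peak held 3 and a short cAMP response element, and the first Sin3a peak held 2. The first Rest peak, the second Sin3a peak, the Sp3 peak and the Sp4 peak held 1 GC box each. The second Rest peak, the third Sin3a peak and the Sin3b peak held none of the searched letters. Over the whole 200-base peaks within 1 kb of a protein-coding start, a GC box was found in 15 of 36 DOP-treated peaks of the 10 genes (41.7%) and in 19 of 39 untreated ones (48.7%), beside 33.0% and 33.6% of all such peaks in the 2 lists. The full cAMP response element TGACGTCA, which contains the short element on both strands, was in none of the genes' peaks and in 0.222% and 0.244% of all peaks. Short elements were in 22.2% and 20.5% of the genes' peaks against 14.7% and 14.8% of all. The left part of the REST site was in none of them and in 0.241% and 0.216% of all peaks, and the right part was in 13.9% and 10.3% against 18.5% and 18.4%. The genes' peaks were rich in G and C, with a median of 67.8% (DOP-treated) and 68.0% (untreated) against 62.0% and 62.5% for all. Their ratio of observed to expected CpG was 0.825 and 0.853, against 0.703 and 0.713.

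DOP-treated peaks were present at 9 of the 10 genes and untreated peaks at all 10, against 57.7% and 56.9% of all protein-coding genes. The exception was Rest. Where a gene had peaks in a list it had 2 to 9 of them, with a median of 5 in both lists, beside 3 for all genes with a peak. Peak strength is given as the percentile of the deposited score within its own list, because the definition of the score is not given. The median of the highest peak per gene was at percentile 91.2 in the DOP-treated and 92.6 in the untreated list, compared with 78.4 and 77.3 over all genes with a peak. In order of their highest untreated peak, the genes ran from Sp3 (99.6) through Ncor1 (98.0), Sin3b (96.9), Sp1 (95.9), Creb1 (94.4), Trp53 (90.8), Rest (85.5), Sin3a (81.6) and Rcor1 (65.4) to Sp4 (44.7). The DOP-treated order was Sp3 (99.6), Sin3b (97.8), Ncor1 (96.0), Creb1 (91.3), Sp1 (91.2), Trp53 (84.8), Rcor1 (82.1), Sin3a (70.4) and Sp4 (39.6). Sp3 stood at the top and Sp4 at the bottom of both orders, while neighbours could not be separated from each other without replicate lists.

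**Figure D1:**
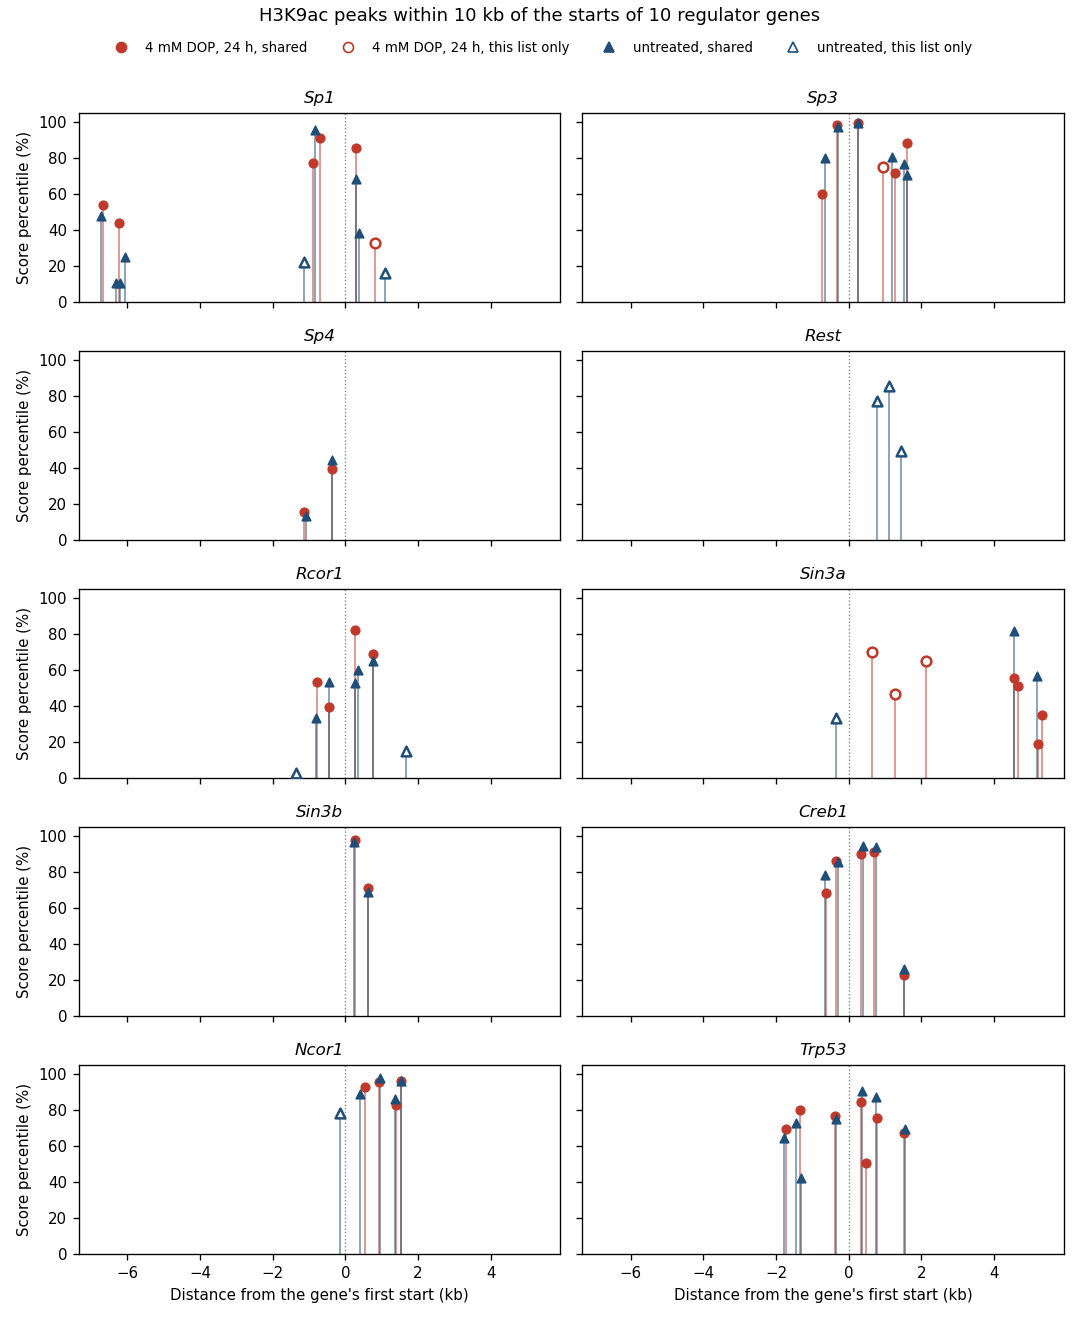
Each panel shows the H3K9ac peaks of 1 gene, with the distance of the peak centre from the gene's first start (kb, positive in the direction of transcription) on the x axis and the percentile of the peak's score within its own list (%) on the y axis. Circles are DOP-treated and triangles untreated peaks, and open marks are peaks found in 1 list only: Rest has 3 open triangles and no circle, and Sin3a has 3 open circles inside the gene.

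Most peaks lay at the promoters and in both lists. In the DOP-treated list 34 of 43 peaks were within 1 kb of a start of their gene, and in the untreated list 36 of 49 were. Overlap of at least 1 bp with a peak of the other list was found for 38 DOP-treated and 40 untreated peaks. Thus 5 peaks (11.6%, 95% Wilson interval 5.07 to 24.5, counting error only) had no untreated counterpart, where 16.2% of all peaks within 10 kb of a protein-coding start were. In the untreated list 9 peaks (18.4%, 9.98 to 31.4) had no DOP-treated counterpart, beside 13.3% of all. Both intervals contain the background share, but they treat the peaks as independent and are too narrow where peaks cluster in a gene. Of the 5 peaks 3 were at Sin3a, and of the 9 peaks 3 were at Rest. The median peak of the 10 genes stood at percentile 71.3 (DOP-treated) and 69.6 (untreated), against 55.2 and 55.1 for all peaks near starts, and 9 peaks in each list were above percentile 90. The farthest assigned peaks were those upstream of Sp1, 6670 bp (percentile 53.9, DOP-treated) and 6731 bp (47.7, untreated) from its nearest start. The nearest peaks left out were beyond Trp53 and closest to Atp1b2, 16709 bp (percentile 17.6, DOP-treated) and 17068 bp (32.2, untreated) away, so that no peak lay close to the 10 kb limit on either side.

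**Figure D2:**
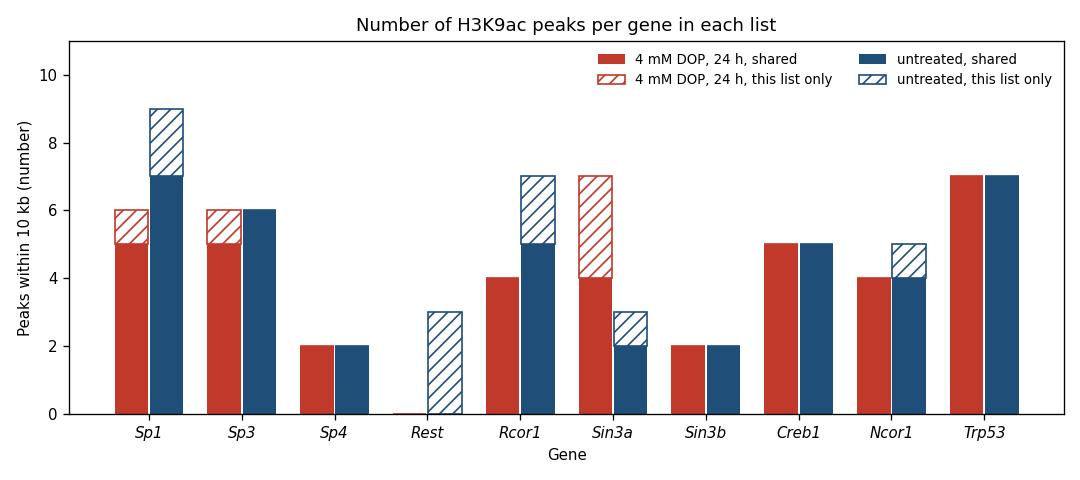
Number of H3K9ac peaks within 10 kb of a start (y axis) for each gene (x axis), with DOP-treated bars on the left and untreated bars on the right of each pair; hatched parts are peaks found in that list only. Sin3a had 7 DOP-treated and 3 untreated peaks, and Rest had 0 and 3.

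One gene, Sin3a, had more DOP-treated than untreated peaks, 4 had fewer (Sp1, Rest, Rcor1 and Ncor1) and 5 had equal numbers. Among the 13272 protein-coding genes with any peak, 32.5% had more and 28.5% had fewer, so differences in number alone were common. When only peaks nearest to the gene were counted, the number with more was 3 (Sin3a, Ncor1 and Trp53). The scores of a gene's peaks were therefore also summed. All sums and totals here take the scores to be additive, which could not be checked because their definition is not given. The ratio of a gene's sums between the lists was divided by the median ratio over the 12375 genes with peaks in both, which was 1.07. The central 90% of these centred ratios ran from 0.755 to 1.44. Of the 9 regulators with peaks in both lists, 1 was higher by 1.5-fold or more in the DOP-treated list, where 3.83% of genes were, and 0 were lower by as much, where 2.19% were. The one was Sin3a, at 1.78, but with peaks within 1 kb of a start alone its ratio was 1.21. The other 8 ran from 0.769 (Ncor1) to 1.07 (Sp1).

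**Figure D3:**
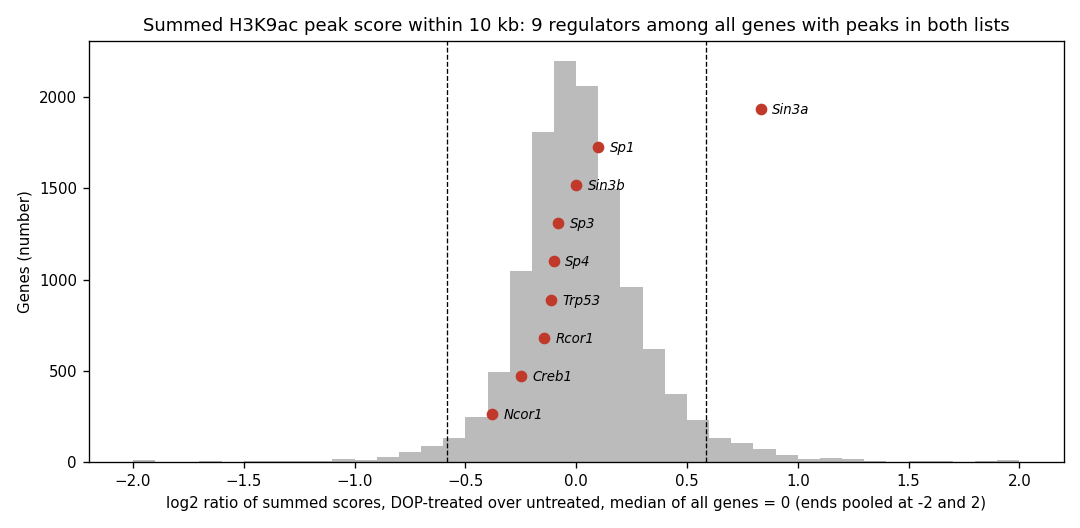
Grey bars count the genes with peaks in both lists (y axis) by the log2 ratio of their summed peak score within 10 kb, DOP-treated over untreated, with the median of all genes at 0 (x axis). Red points mark 9 regulators at arbitrary heights and the dashed lines mark 1.5-fold in either direction: Sin3a, with a centred ratio of 1.78, is the only point outside them.

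Rest, the gene of the repressor of neuronal genes, spans chr5:77694516-77715457 on the plus strand of mm9. It was the only member without a DOP-treated peak. In the untreated list its first peak, centred at 77695304 in an exon annotated as 5′ UTR, had a score of 739.8 (percentile 77.2). The second, at 77695634 in an intron, had 927.4 (percentile 85.5), and the third, at 77695946 and also in an intron, had 395.9 (percentile 49.6). They lay 788, 1118 and 1430 bp downstream of the first start and 83, 413 and 725 bp from the nearest of the gene's 3 starts. No DOP-treated peak was closer than 42313 bp to any of them. The DOP-treated list was empty from 77524060 to 77738259, a gap of 214199 bp in which the untreated list held 5 peaks. The other 2 were weak and beyond the window, at 77646598 (percentile 13.3) and 77674973 (percentile 16.5). Gaps between neighbouring DOP-treated peaks had a median of 842 bp, and 6.68% were at least as long as the one over Rest.

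The next marked promoter downstream showed no such contrast. At the promoters of Polr2b, which encodes a subunit of RNA polymerase II, and of 2610024G14Rik, 43743 to 45222 bp downstream of the first Rest start, each list held 4 peaks, and all were shared. Their percentiles were 57.6, 75.3, 50.5 and 85.0 in the DOP-treated list and 60.3, 78.1, 46.5 and 91.3 in the untreated list, in order of position. At Igfbp7, 1 peak 142202 bp from the Rest start was shared at percentile 45.9 and 42.9. An untreated peak with no DOP-treated one within 10 kb was found for 362 of 12737 genes (2.84%). Of 7343 genes with 3 or more untreated peaks, 18 had no DOP-treated peak, and the reverse held for 21 of 7524. Of 4583 genes whose highest untreated peak stood at or above the percentile of Rest, 3 had no DOP-treated peak: Zbtb10 (93.5), Tmem63a (92.1) and Rest itself. The cuts at 3 or more peaks and at the percentile of Rest both equal the values of Rest itself, which had been seen. Both comparisons are descriptions only.

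**Figure D4:**
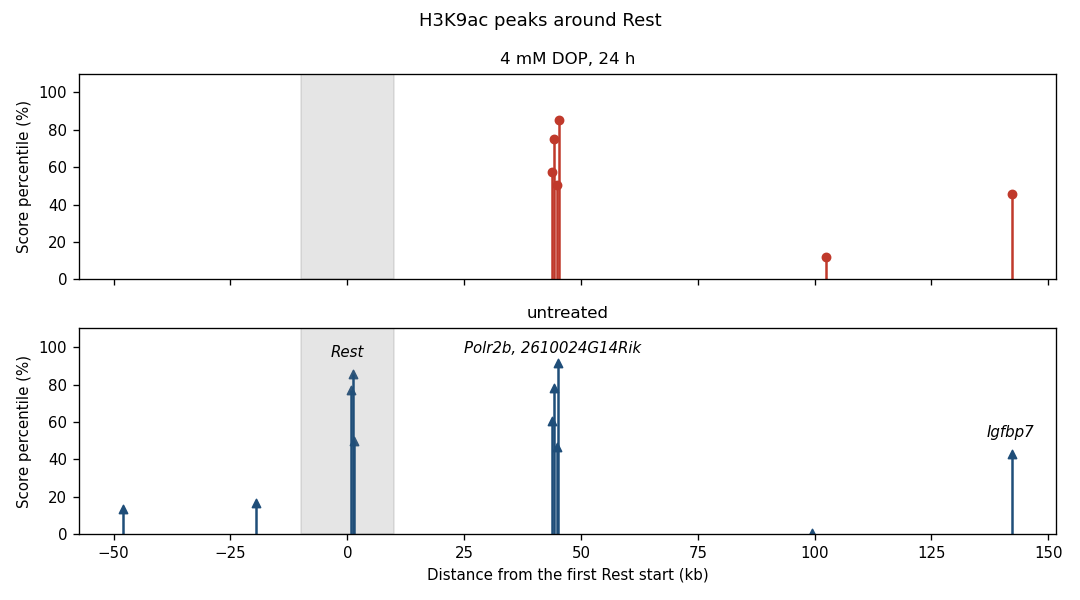
Peaks on both sides of the first Rest start, by distance from it (kb, x axis) and score percentile (%, y axis), DOP-treated above and untreated below; the grey band is the 10 kb window. The band is empty in the DOP-treated list and holds 3 peaks in the untreated list, whereas the 4 peaks at Polr2b and 2610024G14Rik appear in both.

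Sin3a encodes the scaffold through which REST and other repressors bind histone deacetylases. It spans chr9:56919847-56976173 on the plus strand and has starts in several places, the first at its annotated beginning and another group further inside it. Around the first start the lists shared no peak. The DOP-treated list had peaks at 56920486 (score 653.0, percentile 70.4), 56921117 (390.0, 46.9) and 56921980 (577.2, 65.0), all intronic and 639, 1270 and 2133 bp after the first start. The third was nearer to a later start of the gene, 1165 bp before it. The untreated list had 1 peak, at 56919500 and 347 bp before that start (261.0, percentile 33.3), which was 114 bp from a start of the lincRNA Gm10658. The DOP-treated peaks were 986, 1617 and 2407 bp from the nearest untreated peak.

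At the inner starts of Sin3a the lists agreed in position and total. The untreated peak at 56924387 (830.0, percentile 81.6) faced DOP-treated peaks at 56924402 (475.2, 55.9) and 56924500 (429.8, 51.3). The untreated peak at 56925022 (468.0, percentile 57.0) likewise faced DOP-treated peaks at 56925041 (169.0, 19.2) and 56925162 (289.0, 35.1). Each of these stretches of DNA was thus called as 1 peak in the untreated list and as 2 in the DOP-treated list, and the summed scores over the inner starts were 1363.0 (DOP-treated) and 1298.0 (untreated). Around the first start they were 1620.2 and 261.0, the former including the peak of 577.2 that was nearer to a later start. When the peaks of both lists were chained within 1 kb into stretches, the centred ratio was 0.972 for the inner starts and 5.75 for the first start. The untreated peak at 986 bp was only just within the chaining distance. A ratio as high as 5.75 was found in 0.0173% of 11574 stretches near protein-coding starts that held peaks of both lists. Stretches with DOP-treated peaks only have no ratio and were left out of this share. Without that untreated peak the first Sin3a stretch would have been among them, so the share does not measure how rare such a difference was. The 10 genes had 12 stretches, of which 11 held peaks of both lists and 1, at Rest, was untreated only. The stretch at the first Sin3a start alone was higher by 1.5-fold or more, beside 4.36% of all stretches, and none was lower by as much, beside 2.19%. Chaining and summing were added after the values had been seen.

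Sin3b encodes the paralogous scaffold and lies at chr8:75247187-75282102 on the plus strand. Unlike Sin3a it was marked alike in both lists. Its strongest peak stood 270 bp downstream of the start in the DOP-treated list, at 75247457 (score 1677.0, percentile 97.8), and 247 bp downstream in the untreated list, at 75247434 (1567.7, 96.9). The second peak was at percentile 71.3 and 69.3. The summed scores were 2343.0 and 2180.0, a centred ratio of 1.00.

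Rcor1, which encodes the CoREST scaffold, spans chr12:112277561-112354112 on the plus strand. It had 4 DOP-treated and 7 untreated peaks, yet the summed scores were 2281.0 and 2354.0 (centred ratio 0.903). Both untreated-only peaks were weak, at 112276193 (39.0, percentile 2.82) and 112279237 (130.0, percentile 15.3). At the start itself 1 DOP-treated peak at 112277837 (867.1, percentile 82.1) stood opposite a pair of untreated peaks, at 112277813 (427.1, 52.9) and 112277908 (501.8, 60.2). The highest untreated peak was at 112278329 (561.1, percentile 65.4), 18 bp from a DOP-treated one at percentile 69.2. The higher rank of the strongest DOP-treated Rcor1 peak therefore stood beside a total that was not higher.

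Ncor1, the gene of the corepressor that carries HDAC3, spans chr11:62129928-62272043 on the minus strand and was among the most strongly marked members. The highest DOP-treated peak was at 62270513 in an intron (1439.7, percentile 96.0) and the highest untreated peak at 62271098 in the 5′ UTR (1744.5, percentile 98.0). All 4 DOP-treated peaks were shared, at percentiles 96.0, 82.9, 95.6 and 92.8. An untreated-only peak at 62272179 (761.0, percentile 78.3) lay in a coding exon of Pigl, a gene read from the opposite strand whose start was 69 bp away. Another untreated peak, at 62271647 (percentile 89.1), was also nearer to Pigl. The summed scores were 4952.0 (DOP-treated) and 5999.0 (untreated). The centred ratio of 0.769 was the lowest of the set and within the central 90% of all genes. However, the untreated sum included both peaks nearer to Pigl, with scores of 761.0 and 1046.0, whereas all 4 DOP-treated peaks were nearest to Ncor1. The low ratio therefore rests on peaks that may belong to Pigl.

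Sp3 encodes an Sp factor that can activate or repress and spans chr2:72774484-72818503 on the minus strand. It had the strongest mark of the 10 genes, with 6 peaks in each list and a top peak at 72818244 (score 2417.0) and 72818254 (2521.6), both at percentile 99.6 and in an intron. A second shared peak, 312 bp (DOP-treated) and 289 bp (untreated) upstream of the first start, reached percentile 98.7 and 97.5. The DOP-treated list had 1 peak of its own at 72817569 (727.7, percentile 75.0), in a coding exon and 4 bp from a start of the non-coding transcript 1700011J10Rik. Several Sp3 peaks also lay in an intron of the overlapping gene Gm11084. The summed scores were 7262.0 and 7149.1 (centred ratio 0.946).

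Sp1, the founding GC-box activator, spans chr15:102236574-102266835 on the plus strand and had 6 DOP-treated and 9 untreated peaks. Upstream, 2 DOP-treated and 4 untreated peaks were nearer to the start of Gm17671. The highest peaks lay outside the gene, at 102235870 in the DOP-treated list (1151.1, percentile 91.2) and at 102235740 in the untreated list (1450.7, 95.9). The latter overlapped 2 DOP-treated peaks, of which the other stood at 102235680 (768.9, percentile 77.2). Just inside the gene the highest single peak was in the DOP-treated list, with 957.0 (percentile 85.6) facing 597.7 (68.2) and 303.3 (38.6) in the untreated list. In both places the list with the higher single peak had 1 call where the other had 2, so these orders are not orders of totals. Peaks in 1 list only were weak: 102237401 in the DOP-treated list (percentile 32.9), and 102235425 (22.2) and 102237661 (16.5) in the untreated list. For the stretch around the first start the summed scores were 3148.0 and 2670.0, a centred ratio of 1.09.

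Sp4 encodes the Sp factor enriched in neurons and spans chr12:119473406-119539913 on the minus strand. It was the most weakly marked member, with 2 shared peaks upstream of its single start. The higher stood at 119540282 in the DOP-treated list (327.0, percentile 39.6) and at 119540287 in the untreated list (353.0, percentile 44.7), and the other at percentile 15.5 and 13.3. The summed score was 468.0 in both lists. Among all genes with a peak, the highest Sp4 peak ranked at percentile 14.7 (DOP-treated) and 17.6 (untreated), against 99.0 and 99.1 for Sp3.

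Creb1, the cAMP-responsive activator, spans chr1:64579378-64651121 on the plus strand, and its 5 peaks in each list were all shared. The highest was at 64580071 in the DOP-treated list (1157.2, percentile 91.3) and at 64579757 in the untreated list (1311.8, percentile 94.4), both in an intron within 1 kb of a start. The 5 pairs differed by 0.516 to -9.91 percentile points (DOP-treated minus untreated), and 4 of them were lower in the DOP-treated list. The summed scores were 4064.0 and 4497.0 (centred ratio 0.842).

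Trp53 encodes p53, the stress-responsive activator of growth arrest and apoptosis genes, and spans chr11:69393861-69405375 on the plus strand. It shares its promoter region with Wrap53, a gene read from the opposite strand, which was nearer to 3 of 7 DOP-treated and 4 of 7 untreated peaks. The highest peak was intronic, at 69394201 in the DOP-treated list (934.1, percentile 84.8) and at 69394218 in the untreated list (1116.7, percentile 90.8). All 14 peaks were shared, and the summed scores were 4933.0 and 4976.0 (centred ratio 0.924).

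Pairing each shared peak with its mutual nearest neighbour gave 34 pairs near the 10 genes. Of these, 6 stood at least 10 percentile points higher in the DOP-treated list and 6 at least 10 lower, while 17.4% of all 22837 pairs near protein-coding starts were higher and 11.1% lower by as much. The median difference was -0.23 points, against 1.3 for all pairs. The pairs that were higher belonged to Sp1 (33.2 and 17.3), Sp3 (17.9), Rcor1 (29.2 and 20.1) and Trp53 (37.7). The lower ones belonged to Sp1 (-18.7), Sp3 (-20.0), Rcor1 (-14.1), Sin3a (-25.7 and -37.9) and Trp53 (-11.7). The higher Trp53 pair lay in a coding exon of Wrap53 and was nearer to the start of that gene, and the Sp1 pair with the difference of 33.2 was nearer to Gm17671. Sp1, Sp3 and Rcor1 had pairs of their own in both directions, whereas Trp53 had only the lower one. Most of the higher pairs fell where the untreated list had an additional overlapping call that the pair left out. At the Trp53 pair of 37.7, 822.8 in the DOP-treated list faced 334.7 and 666.8 in the untreated list. At the Rcor1 pair of 29.2, 867.1 faced 427.1 and 501.8. The lower pairs of Sin3a and Sp1 likewise fell where the DOP-treated list had an additional call. In such places a pair does not show which list had the higher total. No pair of Sp4, Sin3b, Creb1 or Ncor1 reached 10 points.

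The partners of the 10 proteins were described from lists of genes named for their roles. Their counts are set beside the 57.7% (DOP-treated) and 56.9% (untreated) of all protein-coding genes with a peak, and the 32.5% and 28.5% of genes with any peak that had more and fewer DOP-treated peaks. All 13 genes of the REST and CoREST list had a peak in both lists, with 3 having more and 7 fewer DOP-treated peaks. Ehmt1, a histone methyltransferase, led the DOP-treated percentiles (98.1, with 97.6 untreated), and Kdm1a, the histone demethylase of the CoREST complex, led the untreated ones (97.9, with 94.1 DOP-treated). The 14 genes of the SIN3 list also had peaks in both lists (4 more, 8 fewer), led by Ing1 in the DOP-treated list (96.0 and 91.0) and by Rbbp4, a histone-binding subunit, in the untreated list (94.8 and 99.0). Some peaks of Ing1 and Rbbp4 were nearer to other genes, for Rbbp4 all but 3 of 5 DOP-treated and 2 of 4 untreated ones. In the DOP-treated list the highest peaks ranged from 79.7 to 98.1 over the REST and CoREST genes and from 73.9 to 96.0 over the SIN3 genes.

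All 4 NCoR genes and all 8 coactivators of Sp and CREB had peaks in both lists. Gps2, an NCoR subunit, stood at 97.7 and 99.3 with peaks partly nearer to other genes. Ep300, which encodes the acetyltransferase p300, stood at 99.9 and 100.0, and Crebbp, which encodes CBP, at 98.7 and 91.6. Of the other Sp genes, Sp5 and Sp7 had no peak, Sp9 had 1 weak untreated peak (13.4), and Sp2 was the strongest (90.8 and 93.0). Of the p53 circuit 7 of 9 genes had peaks in both lists, led by Mdm2, which encodes the ubiquitin ligase of p53 (98.2 and 92.7), while Trp63 and Ppp1r13b had none. For 1 of the 7 all peaks were nearer to other genes. Over the 7 lists, 55 genes had peaks in both conditions, and the centred summed-score ratio of 4 was higher by 1.5-fold or more and that of 0 lower by as much, beside 3.83% and 2.19% of all genes. These 4 were named after their values were seen. Phf21a, a CoREST subunit, was higher in the DOP-treated list (2.45), as was Cdkn1a, the p53 target that encodes the cell cycle inhibitor p21 (1.81). Both had more calls in that list, 3 against 1 at Phf21a and 2 against 1 at Cdkn1a. Their highest peaks were close in rank, at 80.4 and 76.1 for Phf21a and 72.9 and 72.8 for Cdkn1a (DOP-treated and untreated). Sp6 (2.36) and the synaptic vesicle gene Syp (2.95) were also higher, with highest peaks no stronger than percentile 37.8 in either list. Only 1 of 3 DOP-treated and 1 of 2 untreated peaks of Sp6 were nearest to that gene.

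**Figure D5:**
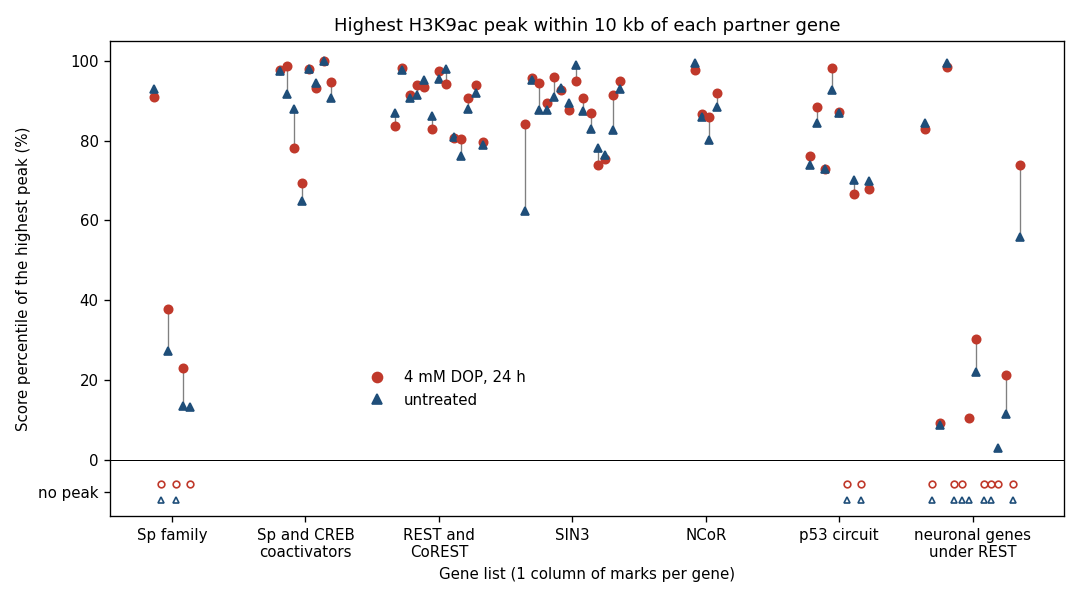
Score percentile of the highest peak within 10 kb of each partner gene (%, y axis) for 7 gene lists (x axis), with circles for the DOP-treated and triangles for the untreated list, joined per gene; open marks below 0 are genes with no peak in that list. Genes of the coactivator, REST and CoREST, SIN3 and NCoR lists all carry marks in both lists, whereas 6 of the 14 neuronal genes have none in either.

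Of 14 neuronal genes that REST is known to repress, 7 had a DOP-treated peak and 7, not all the same, an untreated peak. Among all genes 57.7% and 56.9% had one. No peak in either list was found for 6 of the 14, while 3 had more and 3 fewer DOP-treated peaks. Bdnf, the neurotrophin gene, was marked alike in both (82.9 and 84.5). The peaks within 10 kb of Chrnb2 (98.3 and 99.5) were all nearer to other genes. Unc13a, a synaptic vesicle priming gene named after its values were seen, stood at 73.9 and 55.8, also with peaks partly nearer to other genes. Syn1, a synaptic vesicle gene, had 1 untreated peak (3.0), and L1cam, a neuronal adhesion gene, had 1 DOP-treated peak (10.5). Over the genes with a peak, the median of the highest was 30.3 (DOP-treated) and 22.1 (untreated), against 78.4 and 77.3 for all genes.

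Markers of the cell types that the culture could hold were read in the same way. Of 7 neural progenitor markers 3 had a DOP-treated and 2 an untreated peak: Vim was strongly marked (98.0 and 94.0) and Dlx1 less so (76.3 and 59.1), Dlx2 had a DOP-treated peak only (42.0), and Nes, Sox2, Pax6 and Gsx2 had none. Among all genes 57.7% and 56.9% had a peak. Of 6 markers of mature striatal neurons only Ppp1r1b had peaks (80.2 and 85.4), some of them nearer to other genes. Both fibroblast markers, Col1a1 (89.6 and 63.7) and Pdgfra (49.0 and 36.3), had peaks in both lists. Weak peaks in 1 list only were seen at Slc1a3 (15.0) of 4 astrocyte genes and at Mbp (7.58) of 4 oligodendrocyte genes, of which Mog had weak peaks in both (23.7 and 13.5). The peaks near Aif1, 1 of 4 microglial genes, were all nearer to other genes, and neither of 2 endothelial genes had any. Whether the makeup of the cultures had a part in the differences at Rest and Sin3a was not tested.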

How the data were processed

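H3K9ac ChIP-seq was made from STHdhQ111/Q111 cells treated with DOP (2 samples) or left untreated (2 samples). Per the study's methods, the authors aligned reads to mm9 with Bowtie 2, whereas the submitters' processing notes name BWA 0.7.10, and peaks were called with GPS. The authors deposited 1 list of 200-bp peaks per condition, each peak with a centre and a score. Both deposited lists hold more peaks than the study's methods name for the same condition, so the counts and one-list peaks given here are those of the lists as deposited. How the samples and the IgG control entered the calls, any filter that the study applied to the lists afterwards, what the score counts and the depth per sample are not given in the sources used here.

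Transcript starts and exons were taken from GENCODE vM1 on NCBIM37 (mm9), and no peak ran past a chromosome end. A peak counted for every gene with a start within 10 kb of its centre, and peaks nearer to another gene's start were noted. Scores were turned into percentiles within each list. Peaks were shared when they overlapped by at least 1 bp, and mutual nearest overlapping peaks formed pairs. Scores were summed per gene and per stretch of peaks chained within 1 kb, which takes them to be additive. Intervals are 95% Wilson intervals, cover counting error only and treat peaks as independent. No test between conditions was made, since each had 1 list. On 33355 simulated sites the scripts recovered 8 of 8 planted answers. Apart from the check of chaining, these sites stood far apart with a single start per gene, so split or neighbouring calls were not covered. The tools were samtools 1.23.1, pysam 0.24.0, Python 3.11.15, scipy 1.17.1, pandas 2.3.3, matplotlib 3.10.9 and numpy 2.4.6.

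All 10 members were named, with the highest peak of each list and every peak of 1 list only. Partner genes were named where they had no peak in a list or the highest percentile of their list, at most 4 per list, and others were said to be chosen by value. The members, partner lists and marker lists were chosen with earlier results of these data known. One gene each of the NCoR and the neural progenitor list is not reported here. The alternatives covered the window, the assignment to the nearest gene, score minimums, the rule for shared peaks, chaining, the starts used and the percentile scale.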

Additional observations from a re-analysis of the deposited data

How the results depend on the processing

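The lists carry no replicates, so none could be left out. No paired analysis was possible because each condition has a single list and the peaks carry no replicate number. Of 141 recomputed values, 107 stayed within 1.5-fold of the reported count or inside the interval of the reported percentile, and 17 of the 34 others were percentiles of single genes. Rest had no DOP-treated peak with any window up to 20 kb, under which 9 members still had one.

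The number of members with more DOP-treated than untreated peaks, 1 as reported, was 2 with windows of 1 kb and of 20 kb and 3 with the nearest gene only and with the top 50% by score. Peaks found in the DOP-treated list only (5) numbered 3 with a window of 1 kb, 12 with a reciprocal overlap of at least 50%, 3 with centres within 500 bp and 2 with centres within 1 kb. Peaks found in the untreated list only (9) numbered 5 in the top 50% by score and 3 with centres within 1 kb, so most one-list peaks had a peak of the other list nearby. Chained within 1 kb, the peaks formed 11 DOP-treated and 13 untreated clusters. Ranked among peaks near starts only, the median highest percentile was 89.0 (DOP-treated) and 91.0 (untreated). Pairs lower in the DOP-treated list (6) numbered 10 at 5 points and 3 at 20 points. The summed score and its alternatives were added after the data were seen, and within 1 kb of a start 0 members were higher by 1.5-fold or more, the ratio of Sin3a being 1.21.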
